A study of Zea mays with 8 samples.

Results

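MicroRNA precursor loci were described in maize (Zea mays) anthers, which make the pollen, from plants grown in the field. They were the rows of the deposited values whose identifier names a maize MIR gene, 154 of 39604 rows, and they were sorted into 28 families by the number in the name. Of these, 15 loci in 8 families had at least 1 FPKM (fragments scaled to transcript length and library size) in at least 1 group and are described in full. Wild-type (WT) plants were compared with homozygous hda108/hda108 mutants, which carry a mutation in a histone deacetylase gene. The 2 anther stages were post-meiotic and mitotic. Below, after meiosis stands for the post-meiotic stage, mitotic does not stand for before meiosis, and no order of the stages is assumed. Genotype and stage gave 4 groups of 2 biological replicates, and anthers of several tassels were pooled for each replicate. The deposited values hold 1 FPKM per row and group, so no spread between replicates, no p-value and no test was available, and each comparison below describes 4 values. RNA was taken from whole anthers, where fewer cells of a type and less RNA per cell cannot be told apart.

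A plant MIR gene is transcribed by RNA polymerase II into a long primary transcript that folds into a hairpin. The Dicer-like enzyme DCL1 cuts the short mature microRNA out of the hairpin, and an Argonaute protein then carries it to target RNAs with a matching sequence. Many plant microRNA families are old, and their main targets are transcription factor genes that set developmental phases and organ identity. In grass anthers a pair of families, miR2118 and miR2275, start the production of phased small interfering RNAs, which accumulate in large amounts around meiosis. The libraries here were made from total RNA depleted of ribosomal RNA. The values are therefore those of precursor loci, and mature microRNAs were not measured. The sequences of the hairpins were not used here.

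Most precursor loci were listed at 0 in every group. This held for 137 of the 154 loci, or 89.0%, against 15.2% of all other rows and 63.7% of the 564 other rows under 300 bases. Those short rows were not matched to the hairpins in length. Of them, 458 had 200 to 300 bases and 94 had 150 to 200, while the median hairpin had 124. Of the 28 families, 19 had no locus above 0. They included family 395 with 15 loci, which acts on sulfate assimilation, family 399 with 10 loci, which acts in phosphate signalling, family 172 with 4 loci, which includes the tasselseed4 gene MIR172e, and family 2275 with 4 loci. Family 159, which targets GAMYB genes, had 11 loci and only MIR159d above 0, at 0.937 FPKM in WT mitotic anthers. Depth was unknown, since the values hold no counts, and for a locus listed at 0 no upper limit can be given.

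Family 169 had the most loci with at least 1 FPKM, 5 of 17. Families 166, 167 and 171 had 2 each, of 9, 8 and 13 loci. Families 156, 164, 396 and 2118 had 1 each, of 11, 8, 8 and 7 loci. In WT post-meiotic anthers 8 of the 15 loci were above 0 and in hda108 post-meiotic anthers also 8, against 5 in WT mitotic and 6 in hda108 mitotic anthers. The FPKM of all precursor loci summed to 145 (WT) and 122 (hda108) after meiosis and to 168 (WT) and 53.0 (hda108) at the mitotic stage. A single locus made up 59.8% of the sum in WT post-meiotic anthers (MIR171g) and 67.9% in WT mitotic anthers (MIR169i), so these sums followed 1 locus each.

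**Figure D1:**
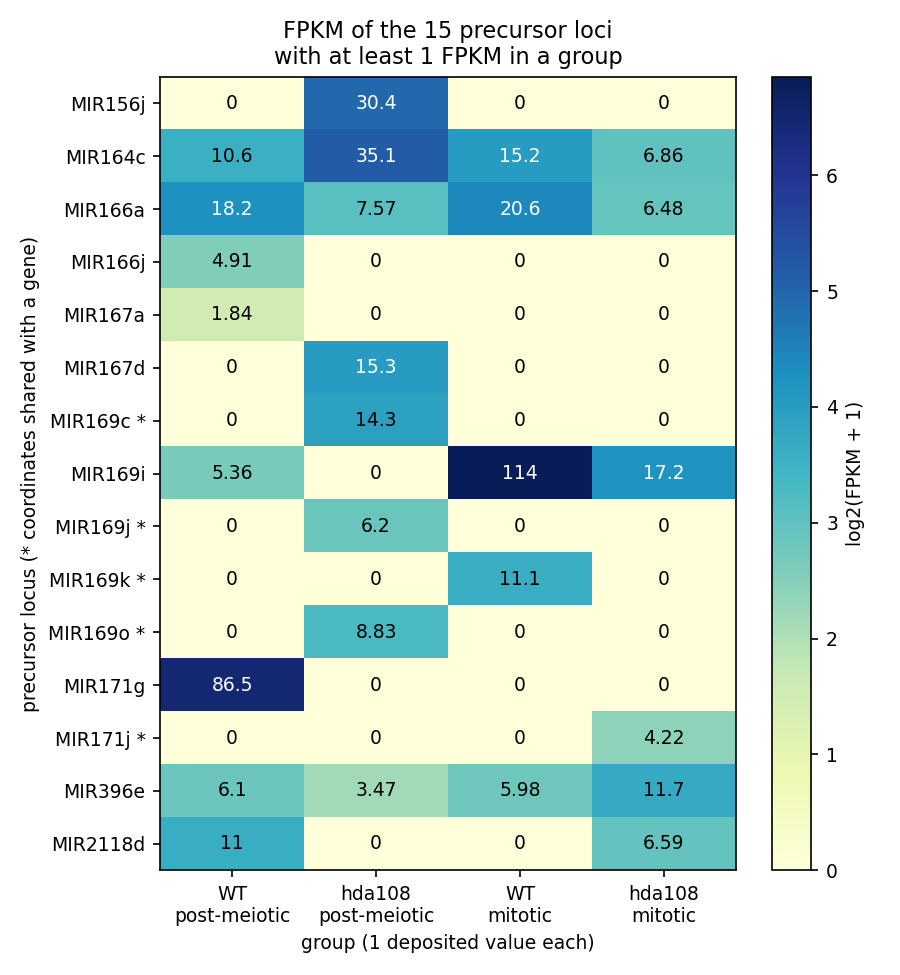
FPKM of the 15 precursor loci with at least 1 FPKM in a group, with rows ordered by family and columns by group; numbers are FPKM, colour is log2(FPKM + 1), and an asterisk marks loci whose coordinates are shared with a gene. MIR164c, MIR166a and MIR396e have a value in all 4 groups, and 10 loci have a value in 1 group alone.

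The loci fell into few that were seen throughout and many seen once. MIR164c, MIR166a and MIR396e were above 0 in all 4 groups, MIR169i in 3 and MIR2118d in 2. The other 10 of the 15 were above 0 in 1 group alone: MIR166j, MIR167a and MIR171g in WT post-meiotic anthers, MIR156j, MIR167d, MIR169c, MIR169j and MIR169o in hda108 post-meiotic anthers, MIR169k in WT mitotic anthers and MIR171j in hda108 mitotic anthers. A value in 1 group alone was listed for 66.7% of the 15 loci, for 14.8% of the 162 other rows under 300 bases that reached 1 FPKM, and for 0.226% of all 24345 other rows that reached it. A locus seen in 1 group alone had to differ between groups to enter this count, so the differences listed below for these 10 loci are descriptions of where the value stood. The 162 other short rows were not matched to the hairpins in length.

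**Figure D2:**
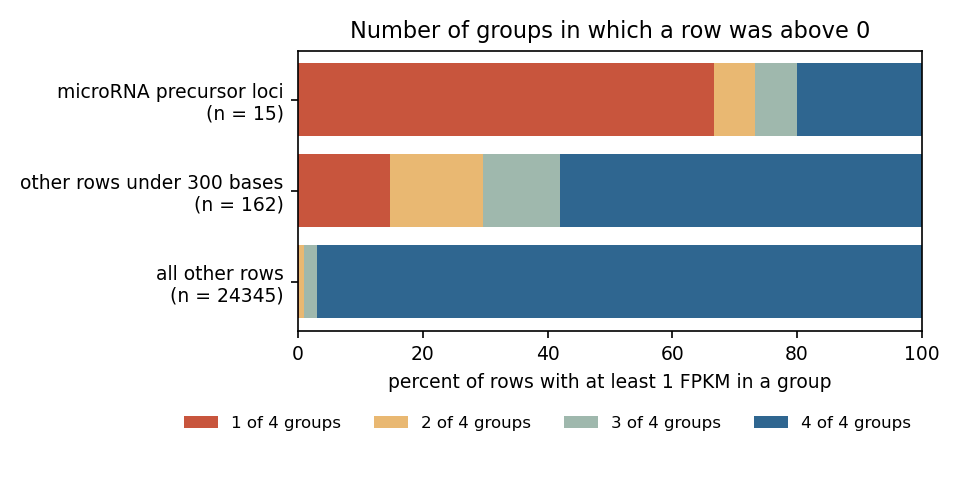
Share of rows with at least 1 FPKM in a group that were above 0 in 1, 2, 3 or 4 of the 4 groups, for the 15 precursor loci, 162 other rows under 300 bases and 24345 other rows of any length. The bars run to 100%, and the part for 1 group alone is 66.7%, 14.8% and 0.226%.

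Loci with a value, and the smallest values listed, differed between length classes. Hairpins ran from 65 to 270 bases in RefSeq, with a median of 124. None of the 34 hairpins under 100 bases was above 0 in any group, and the shortest hairpin above 0 was MIR171g with 112 bases. From 100 to 130 bases 3 of 60 were above 0, from 130 to 150 bases 5 of 20, from 150 to 200 bases 5 of 18, and from 200 to 300 bases 4 of 20. The smallest value above 0 also differed: among all rows with coordinates of their own it was 30.4 FPKM from 100 to 130 bases, 6.59 FPKM from 130 to 150 bases, 0.638 FPKM from 150 to 200 bases and 0.00432 FPKM from 1000 to 2000 bases. Those first 2 classes held only 3 values above 0 each. Their smallest values were themselves those of precursor loci, MIR156j and MIR2118d, so in these classes length was not seen apart from the precursor loci. Whether an FPKM in rows this short can be compared with that of a gene of ordinary length was not tested. Levels of different loci are therefore not ranked here.

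**Figure D3:**
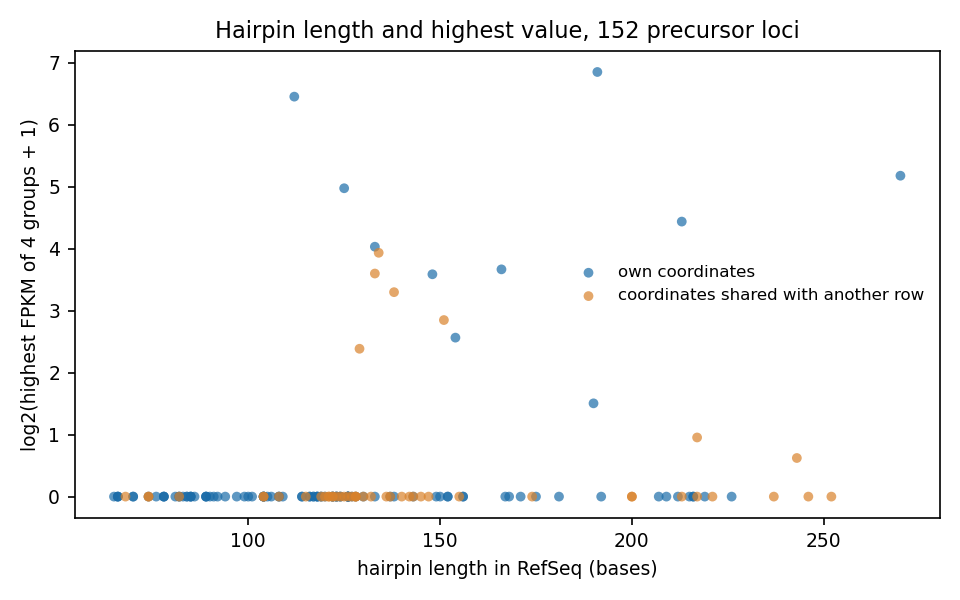
Hairpin length in RefSeq (x axis, bases) against the highest of the 4 values as log2(FPKM + 1) (y axis) for the 152 precursor loci found in RefSeq, blue with coordinates of their own and orange with coordinates shared with another row. All hairpins under 100 bases sit at 0, and points above 0 begin at 112 bases.

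Coordinates are given on B73 RefGen_v3, counted from 1. For all 104 loci with coordinates of their own, the deposited end minus the deposited start equalled the length of the hairpin in RefSeq, which shows that deposited starts count from 0, and 1 was added. The other 50 loci were listed at the coordinates of another row, 46 of them at those of a gene and 4 at those of another MIR locus (MIR169e with MIR169h, and MIR396b with MIR396h). For those 46 the listed span is not that of the hairpin alone, and the bounds of the gene itself are not given. MIR396b and MIR396h, with hairpins of 136 and 124 bases, shared a span of 142 bases, longer than either. Of the 15 loci, 10 had coordinates of their own and MIR169c, MIR169j, MIR169k, MIR169o and MIR171j shared them with a gene.

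HDA108 (GRMZM2G136067), the mutated gene, had 12.3 FPKM (WT) and 4.10 FPKM (hda108) after meiosis, then 6.43 FPKM (WT) and 4.30 FPKM (hda108) at the mitotic stage. Stage markers were checked by symbol. The 3 pollen markers (EXPB10, ABP2 and mgs1) were above 0 in all groups and summed to 6973 FPKM (WT) and 1074 FPKM (hda108) after meiosis, then 12236 FPKM (WT) and 1638 FPKM (hda108) at the mitotic stage. The 4 tapetum markers found of 5 summed to 137 FPKM (WT) and 84.4 FPKM (hda108) after meiosis, then 87.9 FPKM (WT) and 55.8 FPKM (hda108) at the mitotic stage, and the 3 meiosis markers found of 5 summed to 5.50 FPKM (WT) and 6.34 FPKM (hda108) after meiosis, then 2.54 FPKM (WT) and 6.30 FPKM (hda108) at the mitotic stage. Of the tapetum markers, ms23, ms26 and ms32 stood lower in hda108 at both stages as deposited, and ms8 stood higher. The ms8 gene had 0.608 FPKM (WT) and 7.02 FPKM (hda108) after meiosis, then 0.0555 FPKM (WT) and 0.474 FPKM (hda108) at the mitotic stage. The pollen markers stood lower in hda108 at both stages, and in both genotypes their sum was higher at the mitotic stage. Their part in the differences of the precursor loci was not tested. The sum of all FPKM also differed, from 505427 in hda108 mitotic to 1284190 in WT mitotic anthers. When all groups were scaled to sum to 1000000, the median log2 difference of all rows went from -0.03 to 0.50 between genotypes after meiosis, from -0.02 to 1.05 between genotypes at the mitotic stage, from -0.31 to -0.51 between stages in WT and from -0.27 to 0.11 between stages in hda108.

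A locus was counted as higher or lower where log2(FPKM + 1) differed by at least 2, which is 4-fold without the added 1. Between genotypes after meiosis, 5 of the 15 loci were counted higher in hda108, where 1.68% of all rows with at least 1 FPKM were, and 4 lower, where 4.47% of all rows were. At the mitotic stage 2 were higher, against 1.52% of all rows, and 2 lower, against 8.12%. Between stages in WT, 2 were higher at the mitotic stage, against 1.35% of all rows, and 3 lower, against 1.46%. In hda108 3 were higher, against 1.02%, and 6 lower, against 2.94%. The corresponding shares of the 162 other rows under 300 bases were larger than those of all rows, at 6.17% higher and 9.26% lower between genotypes after meiosis and 4.32% and 11.7% at the mitotic stage. They were 4.32% higher and 5.56% lower between stages in WT and 2.47% and 4.32% in hda108. Again these short rows were not matched to the hairpins in length. Of the calls between genotypes after meiosis, all 9 had a group listed at 0 on the lower side, as had 3 of 4 at the mitotic stage, 4 of 5 between stages in WT and 8 of 9 between stages in hda108. No fold is given for those. The calls with a value in both groups were those of MIR169i between genotypes at the mitotic stage and between stages in WT, and of MIR164c between stages in hda108. After rescaling, the calls between genotypes were 6 higher and 4 lower after meiosis and 3 higher and 1 lower at the mitotic stage. The stage calls in hda108 were then 4 higher and 5 lower.

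The 3 loci with a value in every group have no 0 in any of the 4 comparisons, which share groups with each other. MIR164c (chromosome 6, 153550681 to 153550950) belongs to the family that targets NAC genes, which set organ boundaries. It had 10.6 FPKM (WT) and 35.1 FPKM (hda108) after meiosis, then 15.2 FPKM (WT) and 6.86 FPKM (hda108) at the mitotic stage. It stood 3.31-fold higher in hda108 after meiosis and 2.21-fold lower at the mitotic stage, differences of 1.64 and -1.04 log2, neither past the 4-fold rule. After rescaling the first was 2.23 log2, past the rule, and the second turned to 0.18. Within hda108 the mitotic value was 5.12-fold lower than the post-meiotic one, -2.20 log2, or -1.81 after rescaling, short of the rule. The hairpin is the longest of all 152 found in RefSeq, at 270 bases, and the nearest other row lay 38.1 kb away.

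MIR166a (chromosome 6, 84390221 to 84390433) belongs to the family that restricts HD-ZIP III transcription factors, which set the upper side of leaves and floral organs. It had 18.2 FPKM (WT) and 7.57 FPKM (hda108) after meiosis, then 20.6 FPKM (WT) and 6.48 FPKM (hda108) at the mitotic stage. Both hda108 values lay below both WT values, 2.41-fold after meiosis and 3.19-fold at the mitotic stage. The log2 differences of -1.16 and -1.53 did not pass the 4-fold rule. They kept their sign after rescaling, at -0.61 and -0.31. Between stages it differed by 0.17 log2 in WT and -0.20 in hda108, and both changed sign after rescaling. The second member, MIR166j (chromosome 7, 124574856 to 124575009), had 4.91 FPKM in WT post-meiotic anthers and was at 0 in all 3 others.

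MIR396e (chromosome 4, 173329484 to 173329649) is of the family that targets growth-regulating factor (GRF) genes. It had 6.10 FPKM (WT) and 3.47 FPKM (hda108) after meiosis, then 5.98 FPKM (WT) and 11.7 FPKM (hda108) at the mitotic stage. The WT values were nearly equal, and hda108 held both the lowest and the highest value. The genotype difference was -0.67 log2 after meiosis and 0.86 log2 at the mitotic stage, or 2.09 after rescaling, which passed the rule. Between stages in hda108 the mitotic value was 3.37-fold higher, 1.51 log2 or, past the rule, 2.02 after rescaling. MIR396a was listed at 0 in all groups, and its listed span (chromosome 4, 173324333 to 173325043) lay 4.44 kb away. GRMZM2G178990, listed at the same coordinates as MIR396a, had 17.3 FPKM (WT) and 9.12 FPKM (hda108) after meiosis. At the mitotic stage that gene had 42.4 FPKM (WT) and 12.8 FPKM (hda108).

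Family 169 targets NF-YA genes, subunits of a CCAAT-binding transcription factor with roles in drought response and development. MIR169i (chromosome 4, 47269335 to 47269525) had 5.36 FPKM in WT post-meiotic anthers and was listed at 0 in hda108 post-meiotic anthers. At the mitotic stage its values were 114 FPKM (WT) and 17.2 FPKM (hda108). Both mitotic values thus stood above both post-meiotic ones, and each hda108 value below the WT value of its stage. The mitotic WT value was 21.3-fold that after meiosis, and the mitotic hda108 value 6.65-fold below that of WT. The last difference, -2.66 log2, shrank to -1.36 after rescaling and to -1.99 with quantile normalization, in both cases short of the 4-fold rule. The nearest members of its family, MIR169d, MIR169e and MIR169h, start 212 kb away on the same chromosome, span 59.5 kb, and were listed at 0 in all groups.

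The other 4 members of family 169 with a value each had it in 1 group. MIR169c had 14.3 FPKM, MIR169o 8.83 FPKM and MIR169j 6.20 FPKM in hda108 post-meiotic anthers, and all were listed at 0 elsewhere. MIR169k had 11.1 FPKM in WT mitotic anthers and was listed at 0 elsewhere. All these were listed at the coordinates of a gene, and the pairs did not share a pattern. The genes at MIR169c (GRMZM5G838907, chromosome 2, 11307186 to 11308450) and at MIR169o (GRMZM2G377113, chromosome 4, 12923639 to 12924713) had at most 0.0582 and 0.216 FPKM in any group. The protein-coding gene at MIR169j (GRMZM2G078124, chromosome 2, 193348716 to 193353246) had 12.6 FPKM (WT) and 6.36 FPKM (hda108) after meiosis, then 10.1 FPKM (WT) and 5.97 FPKM (hda108) at the mitotic stage, and so was present where MIR169j was listed at 0.

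GRMZM2G138693, the gene at MIR169k (chromosome 7, 135739751 to 135740882), had 1.68 FPKM (WT) and 12.5 FPKM (hda108) after meiosis, then 0.130 FPKM (WT) and 1.85 FPKM (hda108) at the mitotic stage. Its lowest value fell in WT mitotic anthers, the group in which alone MIR169k had a value. The gene itself was 7.41-fold higher in hda108 after meiosis and 14.2-fold higher at the mitotic stage. Those differences, 2.33 and 1.33 log2, lay on either side of the 4-fold rule.

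**Figure D4:**
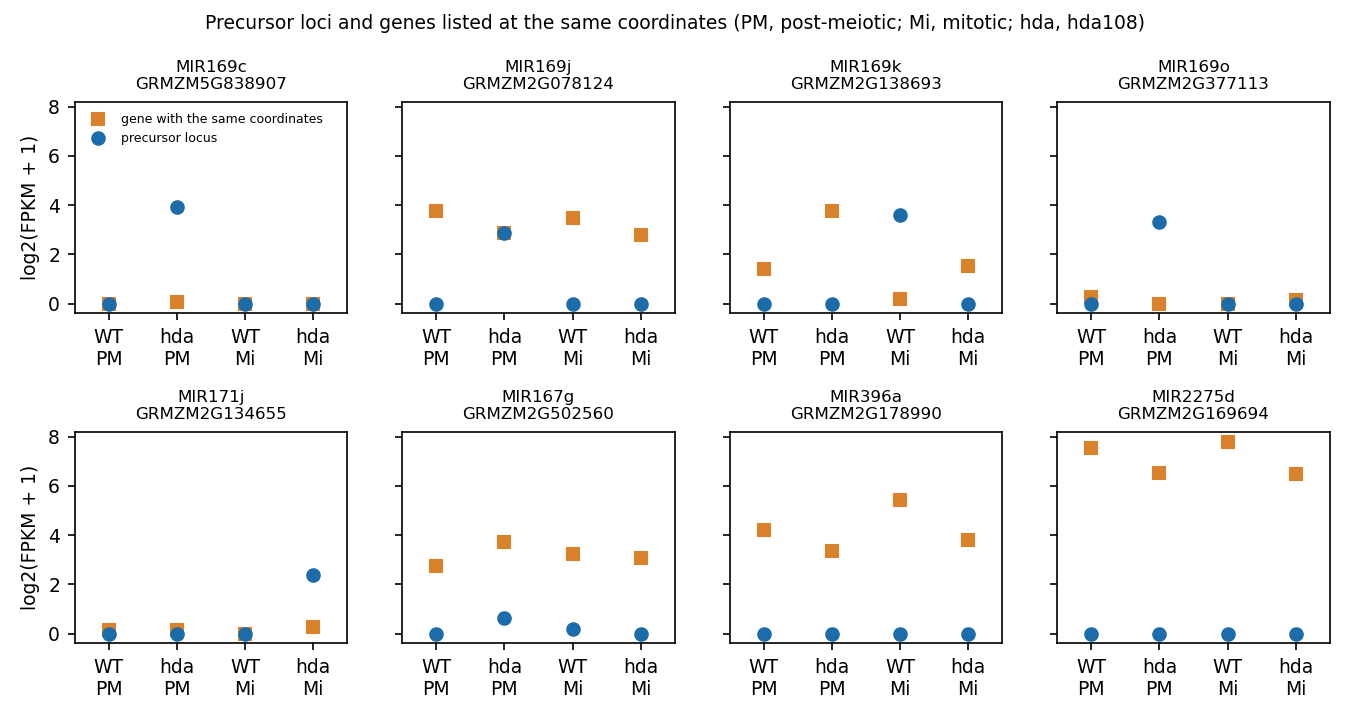
Values of 8 precursor loci (blue circles) and of the gene listed at the same coordinates (orange squares) in the 4 groups, as log2(FPKM + 1). The genes at MIR396a and MIR2275d have high values in all groups while the precursor loci are listed at 0, and MIR169k has its value in the group where its gene is lowest.

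Family 171 targets GRAS genes of the hairy meristem type, which maintain meristems. MIR171g (chromosome 7, 42496620 to 42496731) had 86.5 FPKM in WT post-meiotic anthers and was at 0 in all 3 others. It is the shortest hairpin with a value, and its length class held only 3 values above 0 in all. The nearest row, GRMZM5G885473 at 2.87 kb, had 35.4 FPKM (WT) and 34.2 FPKM (hda108) after meiosis, then 21.6 FPKM (WT) and 18.8 FPKM (hda108) at the mitotic stage, without the contrast seen at MIR171g. MIR171j had 4.22 FPKM in hda108 mitotic anthers alone. It shares its coordinates (chromosome 10, 59887197 to 59888434) with GRMZM2G134655, a long noncoding RNA gene in RefSeq, which had at most 0.190 FPKM.

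Family 167 targets auxin response factor (ARF) genes, which in Arabidopsis act in anther and ovule development. MIR167d (chromosome 1, 287799562 to 287799694) had 15.3 FPKM in hda108 post-meiotic anthers alone. MIR167a (chromosome 3, 119194704 to 119194893) had 1.84 FPKM in WT post-meiotic anthers alone. MIR167g had at most 0.540 FPKM. Its listed span (chromosome 3, 119196612 to 119197694) begins 1.72 kb from MIR167a and is shared with GRMZM2G502560. That gene had 5.80 FPKM (WT) and 12.3 FPKM (hda108) after meiosis, then 8.49 FPKM (WT) and 7.43 FPKM (hda108) at the mitotic stage. Its highest value fell in the same group as that of MIR167g and MIR167d.

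Family 156 targets SBP-box genes and keeps plants in the juvenile phase; extra MIR156 RNA causes the Corngrass1 phenotype of maize. MIR156j (chromosome 7, 130685458 to 130685582) had 30.4 FPKM in hda108 post-meiotic anthers and was at 0 in all 3 others. The other 10 loci of the family were listed at 0 throughout. At the coordinates of MIR156d, GRMZM2G551565 had 16.3 FPKM (WT) and 17.0 FPKM (hda108) after meiosis, then 15.6 FPKM (WT) and 27.5 FPKM (hda108) at the mitotic stage. At those of MIR156g, GRMZM2G125853 had 0.0857 FPKM (WT) and 1.30 FPKM (hda108) after meiosis, then 0.128 FPKM (WT) and 3.25 FPKM (hda108) at the mitotic stage. The gene at MIR156g was thus 15.1-fold and 25.4-fold higher in hda108, at levels too low for the 4-fold rule on log2(FPKM + 1).

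Of the families that start phased small interfering RNAs in anthers, family 2118 had 1 locus with a value and family 2275 none. MIR2118d (chromosome 2, 49919492 to 49919639) had 11.0 FPKM in WT post-meiotic and 6.59 FPKM in hda108 mitotic anthers and was at 0 in both others. It was lower in hda108 after meiosis (-3.59 log2) and higher at the mitotic stage (2.92 log2), the only one of the 15 loci past the rule in opposite directions. By listed coordinates it lies in a cluster of 3 loci over 66.6 kb. Its neighbour MIR2118b, 74 bases away, and MIR2118g were listed at 0, as were the 4 loci of the cluster on chromosome 10. GRMZM2G135935, the nearest gene at 862 bases, had 11.2 FPKM (WT) and 9.53 FPKM (hda108) after meiosis, then 11.6 FPKM (WT) and 8.80 FPKM (hda108) at the mitotic stage. MIR2275d was listed at 0 and shares its coordinates (chromosome 2, 202063304 to 202073361) with the protein-coding gene GRMZM2G169694. That gene had 184 FPKM (WT) and 91.5 FPKM (hda108) after meiosis, then 223 FPKM (WT) and 89.3 FPKM (hda108) at the mitotic stage.

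In all, 13 of the 46 genes listed at the coordinates of a precursor locus reached 1 FPKM, and for 9 of the 13 the precursor locus was listed at 0 in every group. Whether such a gene is a primary transcript of the MIR locus, an overlapping gene or a gene on the other strand is not stated in the labels or file headers, and no strand is given. Such sharing was not confined to precursor loci but was more frequent among them. It held for 50 of the 154 precursor loci, and for 2292 other rows among 39604 rows in all. Those 2292 include the 46 genes.

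Genes that make and use microRNAs and other small RNAs were looked up by symbol. The 5 found were dcl1, HST, dcl4, lbl1 and rdr6, as 7 identifiers because dcl4 has 3. No Argonaute symbol matched. All 7 passed 1 FPKM and none passed the 4-fold rule in any comparison as deposited; after rescaling 4 were higher in hda108 at the mitotic stage, where 13.7% of all rows were. The lbl1 gene, which encodes a partner of RDR6 in making trans-acting small RNAs, had 21.0 FPKM (WT) and 26.4 FPKM (hda108) after meiosis, then 8.58 FPKM (WT) and 15.1 FPKM (hda108) at the mitotic stage. The highest mean after it was that of GRMZM2G050882, a dcl4 identifier (DCL4 makes phased small RNAs), with 12.8 FPKM (WT) and 16.6 FPKM (hda108) after meiosis, then 6.98 FPKM (WT) and 19.2 FPKM (hda108) at the mitotic stage. The dcl1 gene had 6.28 FPKM (WT) and 7.12 FPKM (hda108) after meiosis, then 4.77 FPKM (WT) and 8.41 FPKM (hda108) at the mitotic stage. All 7 identifiers stood above WT in hda108 at the mitotic stage, with a median of 0.75 log2 against -0.02 for all rows, or 2.01 against 1.05 after rescaling. The largest of these differences were those of the 3 dcl4 identifiers, at 1.82, 1.34 and 1.27 log2, so 1 gene weighed on the median 3 times. The dcl1 gene had 0.70 log2. After meiosis 5 of 7 did, or all 7 after rescaling, with a median of 0.11 or 0.67. In WT all 7 were lower at the mitotic stage than after meiosis, by less than the rule, with a median of -0.79 against -0.31. In hda108 4 stood above and 3 below their post-meiotic value, or 6 and 1 after rescaling, with a median of 0.20 or 0.66.

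The genes of 12 target families were looked up in the same way, and 10 lists had a member with at least 1 FPKM, 77 identifiers in all. A list holds a gene family, not known targets, and symbols were matched as written: arf1 can also name an ADP-ribosylation factor and grf1 or grf2 a 14-3-3 protein. The symbol SCL30 was also marked as ambiguous. No symbol matched for GAMYB and TIR1/AFB genes. None of the 77 passed the 4-fold rule between genotypes after meiosis or between stages in WT. At the mitotic stage 0 were higher and 1 lower in hda108, 1.30% against 8.12% of all rows. Between stages in hda108 0 were higher and 2 lower at the mitotic stage, 2.60% against 2.94%. Those 3 calls were ARF21, phb3 and GRF5. After rescaling, 5 of the 77 were higher and 1 lower in hda108 at the mitotic stage, against 13.7% and 2.47% of all rows. Between stages in hda108 1 was then lower, GRF5, against 1.91% of all rows.

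ARF21 (GRMZM2G390641) had 36.3 FPKM (WT) and 15.5 FPKM (hda108) after meiosis, then 71.7 FPKM (WT) and 4.64 FPKM (hda108) at the mitotic stage, where it was 15.4-fold lower in the mutant. The list of 17 ARF genes had a median of 0.00 log2 between genotypes after meiosis and -0.27 at the mitotic stage, which became 0.50 and, with a change of sign, 0.97 after rescaling. The highest mean of the list was that of arf1 (GRMZM2G395844), with 301 FPKM (WT) and 194 FPKM (hda108) after meiosis, then 433 FPKM (WT) and 181 FPKM (hda108) at the mitotic stage. The second was ARF10 (GRMZM2G338259), with 29.0 FPKM (WT) and 49.3 FPKM (hda108) after meiosis, then 24.1 FPKM (WT) and 37.2 FPKM (hda108) at the mitotic stage. Of the HD-ZIP III list, phb3 (GRMZM2G410710) had 37.6 FPKM (WT) and 42.3 FPKM (hda108) after meiosis, then 15.1 FPKM (WT) and 9.62 FPKM (hda108) at the mitotic stage. Between stages in hda108 it was 4.40-fold lower, -2.03 log2, a call that was lost after rescaling. In both genotypes all 6 members were lower in mitotic than in post-meiotic anthers by less than the rule or, for phb3 in hda108, past it, with medians of -0.79 in WT and in hda108 against -0.31 and -0.27 for all rows. After rescaling all 6 remained lower in WT, and in hda108 5 were lower and 1 higher, with medians of -1.01 and -0.38. The list holds hdz10, a symbol that need not name a class III gene, which had 45.4 FPKM (WT) and 27.5 FPKM (hda108) after meiosis, then 15.6 FPKM (WT) and 7.40 FPKM (hda108) at the mitotic stage. Between genotypes, the list median was 0.16 after meiosis and -0.11 at the mitotic stage, or 0.74 and, with a change of sign, 1.16 after rescaling.

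Of the GRF list, GRF5 (GRMZM2G129147) had 22.4 FPKM (WT) and 13.1 FPKM (hda108) after meiosis, then 8.27 FPKM (WT) and 1.71 FPKM (hda108) at the mitotic stage, 7.63-fold lower between stages in hda108. Of 15 members, 12 stood below WT in hda108 at each stage, with medians of -0.24 and -0.62, but after rescaling 6 stood below and 9 above at each stage, with medians of 0.15 and 0.25. The highest means were those of grf1 (GRMZM2G102499) and grf2 (GRMZM2G078641), the ambiguous symbols. In WT post-meiotic anthers grf1 had 365 FPKM and grf2 305 FPKM. Of 13 SBP-box genes, 9 stood above WT in hda108 after meiosis and 8 at the mitotic stage, with medians of 0.26 and 0.07, or 12 and 13 with medians of 0.76 and 1.14 after rescaling. The SBP-box gene with the highest mean, sbp16, had 38.3 FPKM (WT) and 52.7 FPKM (hda108) after meiosis, then 28.7 FPKM (WT) and 52.8 FPKM (hda108) at the mitotic stage. The second, sbp7 (GRMZM2G098557), had 19.4 FPKM (WT) and 23.5 FPKM (hda108) after meiosis, then 12.2 FPKM (WT) and 20.6 FPKM (hda108) at the mitotic stage. Both stood above WT in hda108 at each stage.

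The NF-YA list had 7 tested identifiers and medians near those of all rows, at -0.04 after meiosis and 0.15 at the mitotic stage between genotypes, or 0.51 and 1.21 after rescaling, where all rows had 0.50 and 1.05. NF-YA7 had 11.9 FPKM (WT) and 10.8 FPKM (hda108) after meiosis, then 6.88 FPKM (WT) and 6.81 FPKM (hda108) at the mitotic stage. CA2P16 had 7.88 FPKM (WT) and 7.64 FPKM (hda108) after meiosis, then 12.8 FPKM (WT) and 6.31 FPKM (hda108) at the mitotic stage. The GRAS list of 8 had medians of -0.30 and -0.20, or -0.30 and -0.50 without the ambiguous SCL30 identifiers. After rescaling, the medians of the whole list turned to 0.20 and 0.65. Its scl23 gene had 19.1 FPKM (WT) and 16.5 FPKM (hda108) after meiosis, then 12.3 FPKM (WT) and 6.47 FPKM (hda108) at the mitotic stage, and ham101 had 16.0 FPKM (WT) and 16.8 FPKM (hda108) after meiosis, then 17.3 FPKM (WT) and 15.3 FPKM (hda108) at the mitotic stage.

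The TCP, AP2, NAC and laccase lists held no call as deposited. Of 6 TCP genes, all stood above WT in hda108 after meiosis and 4 at the mitotic stage, with medians of 0.43 and 0.16, and all 6 at both stages after rescaling. The highest means were those of TCP8, with 3.55 FPKM (WT) and 4.33 FPKM (hda108) after meiosis, then 5.95 FPKM (WT) and 4.11 FPKM (hda108) at the mitotic stage, and of TCP4. TCP4 had 4.74 FPKM (WT) and 5.60 FPKM (hda108) after meiosis, then 3.01 FPKM (WT) and 3.02 FPKM (hda108) at the mitotic stage. The 3 AP2 genes targeted by miR172 (ids1, sid1 and gl15) had medians of 0.13 and 0.10. The ids1 gene had 1.65 FPKM (WT) and 2.48 FPKM (hda108) after meiosis, then 2.35 FPKM (WT) and 2.59 FPKM (hda108) at the mitotic stage, and sid1 had 1.08 FPKM (WT) and 1.27 FPKM (hda108) after meiosis, then 0.768 FPKM (WT) and 1.10 FPKM (hda108) at the mitotic stage. The gl15 gene, which keeps leaves juvenile, lay the other way, with 1.34 FPKM (WT) and 0.252 FPKM (hda108) after meiosis, then 0.496 FPKM (WT) and 0.0621 FPKM (hda108) at the mitotic stage. It was 5.31-fold and 7.99-fold lower in hda108, at levels too low for the 4-fold rule on log2(FPKM + 1), and stayed lower after rescaling. The single NAC gene found, listed as CUC2 and nam1, had 1.99 FPKM (WT) and 0.510 FPKM (hda108) after meiosis. It was listed at 0 in WT mitotic anthers and had 0.110 FPKM in hda108 mitotic anthers. The single laccase identifier tested (GRMZM5G842071) had 15.0 FPKM (WT) and 17.4 FPKM (hda108) after meiosis, then 15.0 FPKM (WT) and 14.3 FPKM (hda108) at the mitotic stage.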

How the data were processed

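The deposited file gives FPKM, which per the file headers is 1 value for each row and group, from strand-specific libraries of RNA depleted of ribosomal RNA, per the labels' protocols. Cuffdiff 2.2.1, Cufflinks, TopHat2 2.0.13, SAMtools, Trimmomatic 0.33 and CASAVA 1.8 are listed with the build B73 RefGen_v3, without roles, in the submitters' processing notes. The combining of replicates and the scaling of groups are not stated there. Columns with the prefix homo were read as hda108, the only genotype beside WT.

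The limma fit planned for single libraries could not be run on 1 value a group, and the planned size rule was used: a log2(FPKM + 1) difference of at least 2 among the 24360 rows with at least 1 FPKM in a group. The values showed no whole-read steps in rows of equal length, so depth stayed unknown. MIR names and hairpin lengths came from RefSeq genes of Zm-B73-REFERENCE-NAM-5.0, in which 152 of the 154 loci were found, and none of its coordinates were used. Gene lists were matched to its symbols and synonyms. The members and lists were chosen with earlier results of these data known. Named loci were those with at least 10 FPKM in a group or past the size rule with at least 5 FPKM; from each list, called genes and the 2 highest means were named. The remaining loci above 0, and neighbouring or overlapping genes, were named after their values were seen, as were dcl1 and gl15. Computations used Python 3.11.15, numpy 2.4.6, pandas 2.3.3 and matplotlib 3.10.9, and the size rule was tested on simulated data.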

Additional observations from a re-analysis of the deposited data

Results flagged for a closer look

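For MIR164c and MIR2118d the genotype difference pointed one way after meiosis and the other way at the mitotic stage. The mitotic difference less the post-meiotic one was -2.68 log2 for MIR164c, which had a value in all 4 groups, and 6.51 log2 for MIR2118d, which was listed at 0 in 2 of them. With 1 value a group this difference between stages was not tested. For MIR164c the mitotic difference changed sign after rescaling.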

How the results depend on the processing

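No paired analysis was possible because the deposited values hold 1 FPKM per group and not per library, and for the same reason no replicate could be left out. With only loci above 0 in both groups, the counts of higher and lower loci were 0 and 0 between genotypes after meiosis, 0 and 1 at the mitotic stage, 1 and 0 between stages in WT, and 0 and 1 in hda108. The count of 2 loci lower in hda108 at the mitotic stage became 1 after rescaling to a common sum, 1 with quantile normalization and 4 with a rule of 1 log2, and the count of 2 higher became 1 at a minimum of 5 FPKM. After rescaling, signs changed for MIR164c between genotypes at the mitotic stage (0.18) and for MIR166a between stages in WT (-0.078) and hda108 (0.23). With quantile normalization they changed for MIR166a between stages in hda108 (0.12) and for MIR396e between stages in WT (0.35). The cause was not tested. A pseudocount of 0.1 left all counts within 1.5 times. The other 2 settings could not change a count. Values below 1 FPKM cannot differ by 2 in log2(FPKM + 1), so dropping the minimum adds no call. A shortest span of 100 bases removes none of the 15 loci. The unknown depth limits every value, and that of short hairpins most.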
